A study of Mus musculus with 6 samples.

Results

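The cyclin E, cyclin A and Cdk2 genes described here are 10 genes of the machinery that takes cells from G1 into S phase: Ccne1, Ccne2, Ccna1, Ccna2, Cdk2, Cdc25a, Fbxw7, Skp2, Cks1b and Cks2. They were chosen by name, as the probe sets whose only gene symbol in the array annotation was 1 of these, which gave 23 of the 34945 probe sets with 1 symbol and 10 of 18193 genes. RNA came from mouse embryonic stem cells (mESCs) with floxed Dicer alleles (Dicer flox/flox), grown on gelatin with serum and LIF and taken 5 days after transfection. The Dcr KO group (3 arrays) received GFP and Cre recombinase, and the Dcr WT group (3 arrays) received GFP alone. Both groups thus started from cells with the floxed alleles, and both received GFP. The transfected cells were not a single clone, and no group received Cre without floxed alleles, so that effects of Cre and of the deletion cannot be told apart. The methods call the arrays of a group biological triplicates, and their number limits the precision of every value.

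Cyclin E, made from Ccne1 and Ccne2, binds the kinase Cdk2 late in G1 and starts DNA replication, and cyclin A takes over the kinase in S phase. Cdc25a removes the phosphates that hold Cdk2 inactive, and the small Cks proteins help the kinase bind its substrates. The ubiquitin ligases that use Fbxw7 and Skp2 remove cyclin E and the kinase inhibitor p27. Mouse ES cells are known for a short G1 phase and for cyclin E with Cdk2 activity that varies little through the cycle.

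Dicer cuts miRNA precursors, and the series is titled for the miR-290 cluster, whose miRNAs are among the most abundant of mouse ES cells and share a seed with the miR-302 family. Mature sequences of both are shown because they are among the molecules that cells without Dicer cannot make. They come from RefSeq (GRCm38.p6), read 5′ to 3′, with the seed (bases 2 to 8) in capitals.
mmu-miR-291a-3p: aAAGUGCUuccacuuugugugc
mmu-miR-294-3p: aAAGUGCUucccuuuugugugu
mmu-miR-295-3p: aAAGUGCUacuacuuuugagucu
mmu-miR-302b-3p: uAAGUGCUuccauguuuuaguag
mmu-miR-290a-3p: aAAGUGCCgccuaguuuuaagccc
The first 4 share the seed AAGUGCU, and the seed of miR-290a-3p ends in C in its place. The levels of these miRNAs were not measured on the arrays used here. Of the 10 genes, Skp2 alone is on the list of candidate miRNA targets that the study drew up, and since that list was chosen partly for a rise on these arrays, its direction here is not independent evidence.

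The gene targeted by Cre, Dicer1, kept 39.7% of its Dcr WT level in Dcr KO as the mean of 2 probe sets (adjusted p = 0.0134 from limma). Dicer1 kept 27.9% on 1427941_at (adjusted p = 0.0138) and 56.5% on 1460571_at (adjusted p = 0.0908), both from limma over probe sets. The position of its probe sets against the floxed segment was not examined. All 8 ES cell markers were above the minimum level and none passed the test. Of these 8, 4 had every Dcr KO array above and 1 had every Dcr KO array below. Among all genes tested these shares were 17.7% and 21.2%. The summed linear level of the 8 was 43519 to 44148 in Dcr KO and 36436 to 40912 in Dcr WT. None of 5 primitive endoderm markers reached the minimum. Above it were 2 of 4 trophectoderm markers, 1 of 5 fibroblast markers and 1 of 2 measured primitive streak markers, and none of these was called. The summed linear level of 4 neural markers was 515 to 594 in Dcr KO and 317 to 370 in Dcr WT, and most of it was Tubb3. Tubb3 rose by 0.73 on the log2 scale (adjusted p = 0.0100 from limma), Nes differed by -0.07 (adjusted p = 0.759 from limma), and Pax6 and Sox1 lay under the minimum. Its part in the results below was not tested. In bulk RNA, a change in the share of cells in a phase of the cycle and a change in RNA per cell cannot be told apart.

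Of the 10 genes, Ccne2 and Skp2 rose in Dcr KO, none fell, 7 were tested and did not pass, and Ccna1 was too dim to test. Gene values are means of the log2 levels of the gene's probe sets, a gene was tested if its mean over the 6 arrays was at least 4 (16 on the linear scale), and a call is an adjusted p under 0.05 over all 8782 genes tested with limma. Over all genes tested, 13.3% were called, 6.91% as higher and 6.42% as lower in Dcr KO. Ccne2 and Skp2 were also the 2 genes whose Dcr KO arrays all lay above the Dcr WT arrays, while 4 (Ccne1, Ccna2, Cks1b and Cks2) had all Dcr KO arrays below and 3 overlapped. Among all genes tested, 38.9% did not overlap, 17.7% with Dcr KO above and 21.2% with it below. Among the 9 tested genes, log2 differences (Dcr KO minus Dcr WT) had a median of -0.10 and a mean of 0.07, beside a median of -0.02 over all genes tested, so the median and the mean differed in sign.

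**Figure D1:**
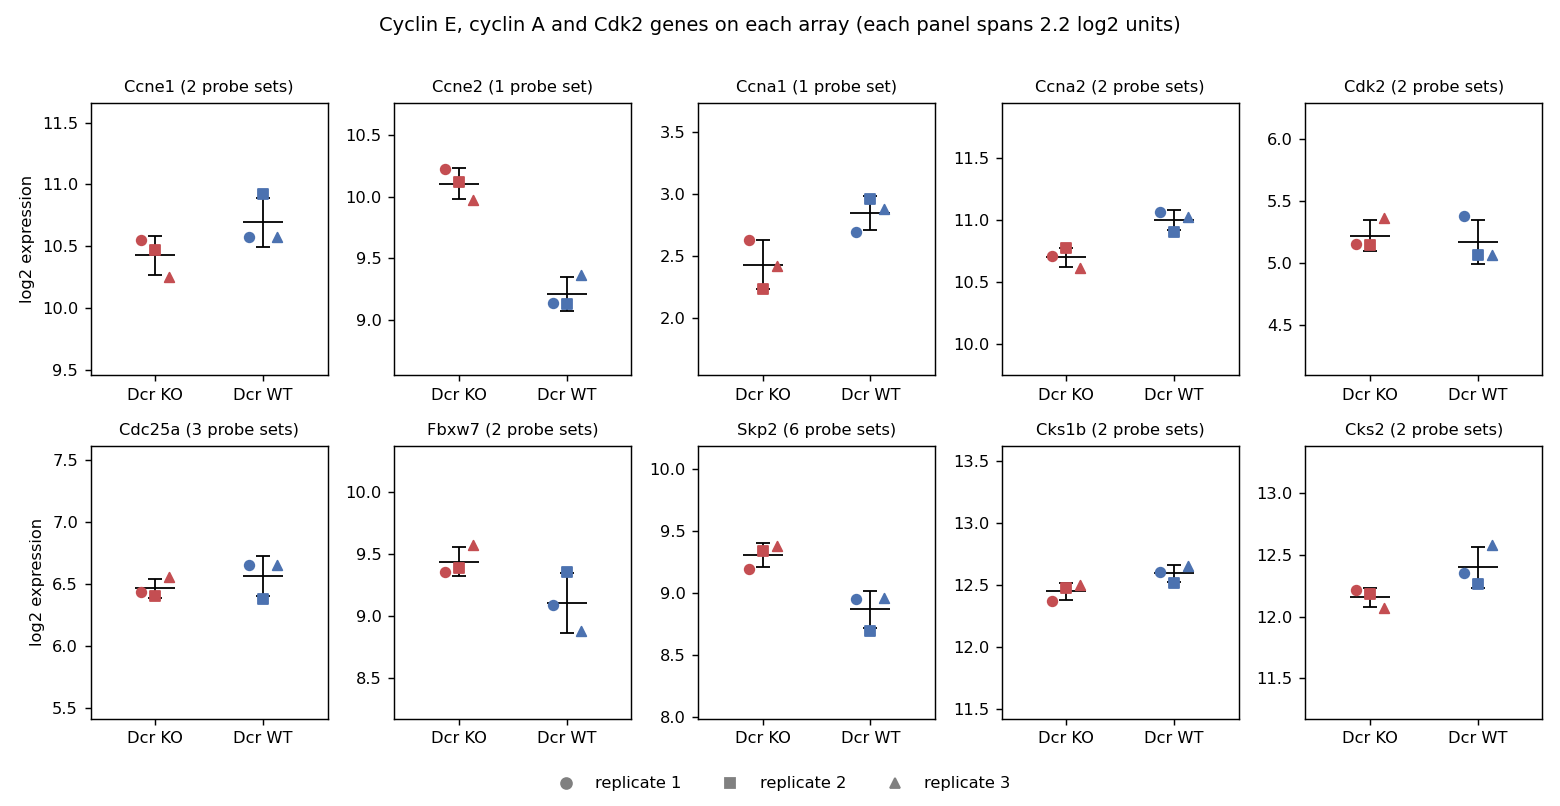
Log2 expression of the 10 genes on each array, Dcr KO left and Dcr WT right (points, 1 per array, shaped by replicate; horizontal line, mean; bars, SD, n = 3). Each panel spans the same range of log2 units, and the widest gap between the groups is in Ccne2, with all 3 Dcr KO arrays between 9.97 and 10.22 and the Dcr WT arrays between 9.13 and 9.37.

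The 2 cyclin E genes did not move together. Ccne2, which encodes cyclin E2 and is measured by 1 probe set (1422535_at), had log2 levels of 10.22, 10.12 and 9.97 in Dcr KO, against 9.14, 9.13 and 9.37 in Dcr WT. The groups were 0.60 apart, more than the whole range of either. Ccne2 averaged 10.10 ± 0.13 in Dcr KO and 9.21 ± 0.14 in Dcr WT (SD, n = 3 each), a log2 difference of 0.89 (standard error 0.12, adjusted p = 0.00570 from limma) or 1.85-fold, with a 95% interval of 1.54 to 2.23. No single array decided the call, since it held with any 1 of the 6 left out (log2 difference 0.83 to 0.97, highest adjusted p = 0.0297 from limma).

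Ccne1, which encodes cyclin E1, had no such rise on either of its 2 probe sets. The brighter, 1441910_x_at, had log2 levels of 11.28, 11.26 and 10.94 in Dcr KO, against 11.32, 11.59 and 11.32 in Dcr WT. The other, 1416492_at, had 9.83, 9.69 and 9.57 in Dcr KO, against 9.84, 10.26 and 9.83 in Dcr WT. On both, Dcr KO replicate 1 lay within 0.04 of the lowest Dcr WT array and Dcr WT replicate 2 was the highest array. As a gene, Ccne1 averaged 10.43 ± 0.16 in Dcr KO and 10.69 ± 0.20 in Dcr WT (SD, n = 3 each). Its difference did not pass (95% interval -0.58 to 0.05, adjusted p = 0.222 from limma), and at 83.2% of the Dcr WT level it had the sign opposite to that of Ccne2.

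The cyclin A genes differ in where they are used: Ccna2 encodes the cyclin A of dividing somatic and embryonic cells, and Ccna1 that of male meiosis. Ccna2 was slightly lower in Dcr KO on both probe sets without passing. Probe set 1417911_at had log2 levels of 10.56, 10.70 and 10.60 in Dcr KO, against 11.12, 10.88 and 11.13 in Dcr WT, and 1417910_at had 10.85, 10.84 and 10.63 in Dcr KO, against 11.00, 10.93 and 10.92 in Dcr WT. Neither overlapped between groups, and the difference was -0.42 on 1417911_at and -0.18 on 1417910_at. As a gene, Ccna2 averaged 10.70 ± 0.08 in Dcr KO and 11.00 ± 0.08 in Dcr WT (SD, n = 3 each), a log2 difference of -0.30 (95% interval -0.53 to -0.07, adjusted p = 0.0824 from limma). With a variance prior that follows the level, in place of 1 common prior, the same difference passed (adjusted p = 0.0419 from limma).

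Ccna1 was near the bottom of the scale, at 2.63, 2.23 and 2.42 in Dcr KO, against 2.69, 2.96 and 2.88 in Dcr WT. All of these lay under the minimum of 4, so no test was made, and the log2 difference of -0.42 is between dim values. Of 9 genes of male germ cells and meiosis, 3 were above the minimum and their directions were mixed. Ddx4 rose (log2 difference 0.65, adjusted p = 0.0207 from limma), while Sycp3 had every Dcr KO array below without passing (-0.60, adjusted p = 0.0604 from limma). The 9 genes had a summed linear level of 771 to 839 in Dcr KO and 713 to 835 in Dcr WT.

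Cdk2, the kinase itself, overlapped between groups. Its bright probe set, 1416873_a_at, had log2 levels of 8.90, 8.81 and 8.83 in Dcr KO, against 8.88, 8.64 and 8.62 in Dcr WT, with a difference of 0.13 (adjusted p = 0.487 from limma over probe sets). Its second probe set, 1447617_at, lay between 1.41 and 1.90 on all 6 arrays, under the minimum, and pulled the gene's mean down to 5.22 ± 0.12 in Dcr KO and 5.17 ± 0.18 in Dcr WT (SD, n = 3 each). The gene's log2 difference was 0.05 (95% interval -0.24 to 0.34, adjusted p = 0.816 from limma). The interval of the bright probe set alone reached 1.33-fold upwards. The gene's difference, which takes in the dim probe set, turned negative, at -0.02, without Dcr KO replicate 3. It was likewise negative without Dcr WT replicate 2 or 3, at -0.0033.

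Cdc25a, the phosphatase, had 2 bright probe sets that did not move alike. On 1417132_at the log2 levels were 9.09, 9.11 and 9.16 in Dcr KO, against 9.39, 9.50 and 9.18 in Dcr WT. On 1417131_at they were 8.19, 8.23 and 8.68 in Dcr KO, against 8.68, 7.79 and 8.61 in Dcr WT. The first had every Dcr KO array below, by as little as 0.02, and the second overlapped, with the lowest array in Dcr WT. A dim probe set, 1445995_at, averaged 1.91 in Dcr KO and 1.97 in Dcr WT. As a gene, Cdc25a averaged 6.46 ± 0.08 in Dcr KO and 6.56 ± 0.16 in Dcr WT (SD, n = 3 each), a difference of -0.10 with a 95% interval of -0.36 to 0.17 (adjusted p = 0.582 from limma).

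The Cks genes, whose small proteins bind cyclin-dependent kinases, lay lower in Dcr KO on average and neither passed. Cks1b, whose protein is also the cofactor with which Skp2 binds p27, had log2 levels of 13.64, 13.66 and 13.63 in Dcr KO on 1416698_a_at, against 13.67, 13.68 and 13.65 in Dcr WT. On 1448441_at it had 11.10, 11.30 and 11.37 in Dcr KO, against 11.54, 11.36 and 11.66 in Dcr WT. Both probe sets overlapped by 0.01, while their mean did not: Cks1b averaged 12.45 ± 0.07 in Dcr KO and 12.59 ± 0.07 in Dcr WT (SD, n = 3 each), with a difference of -0.14 (95% interval -0.37 to 0.08, adjusted p = 0.338 from limma).

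Cks2, the other Cks gene, had log2 levels of 12.23, 12.20 and 12.05 in Dcr KO on 1417457_at, against 12.29, 12.35 and 12.56 in Dcr WT. On 1417458_s_at it had 12.20, 12.16 and 12.09 in Dcr KO, against 12.41, 12.17 and 12.60 in Dcr WT. The 2 probe sets gave the same log2 difference of -0.24, without overlap on the first and with overlap on the second. Over both, Cks2 averaged 12.16 ± 0.08 in Dcr KO and 12.40 ± 0.17 in Dcr WT (SD, n = 3 each), and its 95% interval ran from -0.51 to 0.03 (adjusted p = 0.191 from limma).

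The 2 F-box genes, which pick the substrates of SCF ubiquitin ligases, both had higher means in Dcr KO, and only Skp2 was called. Skp2 had gene levels of 9.20, 9.34 and 9.38 in Dcr KO, against 8.95, 8.70 and 8.96 in Dcr WT, so the groups lay 0.24 apart. It averaged 9.30 ± 0.10 in Dcr KO and 8.87 ± 0.15 in Dcr WT (SD, n = 3 each), a log2 difference of 0.43 (standard error 0.11, adjusted p = 0.0447 from limma) or 1.35-fold, with a 95% interval of 1.13 to 1.62. The call sat at the threshold: leaving out any 1 of the 6 arrays ended it, with a log2 difference of 0.35 to 0.49 and an adjusted p of 0.0656 to 0.138 from limma. It also ended with no minimum level (adjusted p = 0.0536), with the brightest probe set in place of the mean (log2 difference 0.29, adjusted p = 0.141) and with dim probe sets left out (0.0519), all from limma.

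All 6 Skp2 probe sets had higher means in Dcr KO. In 5 of them the Dcr KO arrays lay above without overlap, as in 16.8% of all probe sets tested. The 6 measure 1 gene on the same arrays and are not independent. On 1418969_at the log2 levels were 10.77, 10.71 and 10.78 in Dcr KO, against 10.37, 10.45 and 10.27 in Dcr WT, a difference of 0.39. On 1437033_a_at they were 11.01, 11.08 and 11.02 in Dcr KO, against 10.56, 10.70 and 10.77 in Dcr WT, a difference of 0.36. These 2 had the widest gaps between groups, and neither passed over all probe sets (adjusted p = 0.0679 and 0.0880 from limma). The largest difference, 0.78 on 1449293_a_at, rested on 1 array: its levels were 8.09, 8.30 and 8.62 in Dcr KO, against 8.06, 6.56 and 8.04 in Dcr WT, where replicate 2 was low. The dimmest, 1425072_at, overlapped and was also lowest on that array, at 3.88. The remaining 2 had that array as the highest of Dcr WT. On 1436000_a_at the levels were 9.84, 9.78 and 9.71 in Dcr KO, against 9.26, 9.64 and 9.39 in Dcr WT. On 1460247_a_at, the brightest, they were 11.00, 11.01 and 11.11 in Dcr KO, against 10.66, 10.95 and 10.64 in Dcr WT. Their groups lay only 0.07 and 0.05 apart. Without 1449293_a_at, a choice made after seeing these values, the Skp2 difference was 0.37 and passed (adjusted p = 0.0399 from limma).

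**Figure D2:**
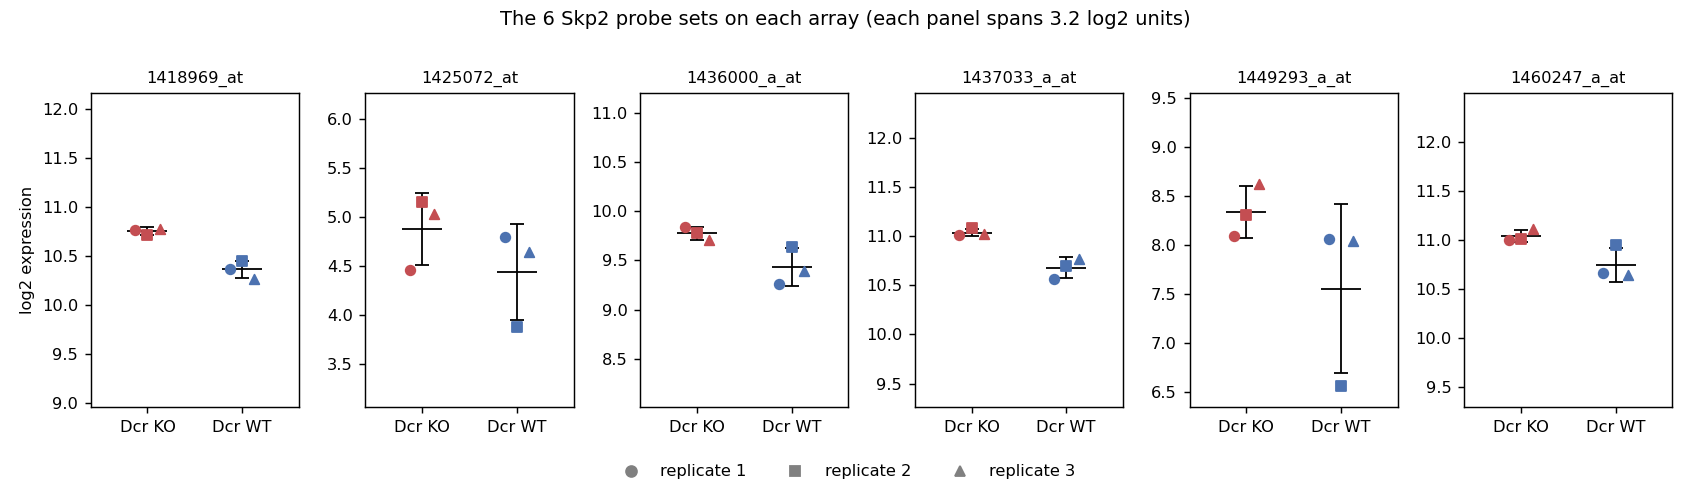
Log2 expression of the 6 Skp2 probe sets on each array, Dcr KO left and Dcr WT right (points, 1 per array, shaped by replicate; horizontal line, mean; bars, SD, n = 3). The Dcr KO arrays lie above the Dcr WT arrays in 5 panels, and Dcr WT replicate 2 stands apart at 6.56 on 1449293_a_at.

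Fbxw7, which marks cyclin E for destruction, had its means on the same side without passing. Probe set 1451558_at had log2 levels of 9.12, 9.24 and 9.35 in Dcr KO, against 8.91, 9.02 and 8.62 in Dcr WT, without overlap. On 1424986_s_at the levels were 9.59, 9.54 and 9.79 in Dcr KO, against 9.26, 9.69 and 9.13 in Dcr WT, where replicate 2 lay among the Dcr KO arrays. As a gene, Fbxw7 averaged 9.44 ± 0.12 in Dcr KO and 9.11 ± 0.24 in Dcr WT (SD, n = 3 each), a difference of 0.33 (95% interval 0.01 to 0.66, adjusted p = 0.150 from limma). Dcr WT replicate 2 was the array farthest from its group mean for 5 of the 9 tested genes: Ccne1, Ccna2, Cdc25a, Fbxw7 and Skp2. This count was not made over all genes tested, so it is not read as a trait of these genes. Over all genes tested, that array's mean correlation with its group was 0.9884, against 0.9885 to 0.9935 on the other arrays.

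Probe set by probe set, 20 of the 23 were bright enough to test, and 1 was called, the Ccne2 probe set (adjusted p = 0.0144 over 18789 probe sets from limma). Among all probe sets tested, 7.75% were called, 4.69% as higher and 3.07% as lower. Of the 20, the Dcr KO arrays lay above without overlap in 7, of which 5 were of Skp2, and below in 5. Over all probe sets tested, 35.7% did not overlap, 16.8% with Dcr KO above and 18.9% with it below. Between probe sets of 1 gene the sign of the difference was shared in Ccne1, Ccna2, Fbxw7, Skp2, Cks1b and Cks2, and not in Cdk2 or Cdc25a. In Cdk2 the odd sign was that of 1447617_at (-0.04), which was under the minimum and not tested. In Cdc25a it was that of 1417131_at, at only 0.0067.

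**Figure D3:**
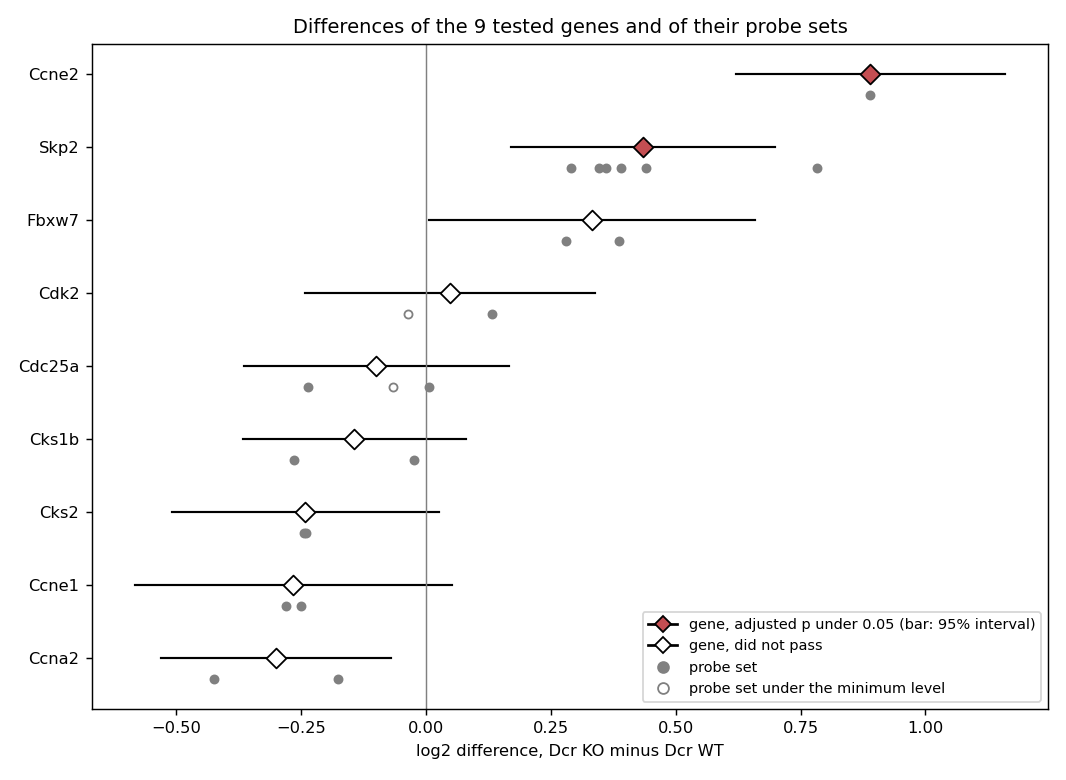
Log2 differences, Dcr KO minus Dcr WT, for the 9 tested genes, ordered by size (diamonds, filled where the adjusted p was under 0.05; bars, 95% interval of limma), with the difference of each probe set below its gene (circles, open where under the minimum level). Ccne2 at 0.89 and Skp2 at 0.43 are the filled diamonds, and the intervals of Fbxw7 and Ccna2 leave out 0 without passing after adjustment.

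Whether related genes differed in their change was asked by the log2 ratio of a pair within each array, for 4 pairs. Ccne2 over Ccne1 was -0.34, -0.36 and -0.28 in Dcr KO, against -1.44, -1.80 and -1.20 in Dcr WT. The groups did not overlap, and the ratio was 2.23-fold higher in Dcr KO, a log2 difference of 1.16. The exact permutation test (two-sided) gave p = 0.1, the smallest that 3 arrays against 3 allow, and 0.4 after adjustment over the 4 pairs, so this test could call no pair with this number of arrays. The other 3 ratios overlapped: the log2 difference was -0.10 for Cks2 over Cks1b (exact p = 0.4) and 0.10 for Skp2 over Fbxw7 (exact p = 0.9). Ccna1 over Ccna2 differed by -0.12, but Ccna1 lay under the minimum level on every array, so nothing is read from this ratio. The ratio of Skp2 over Fbxw7 changed sign to -0.11 without Dcr WT replicate 2. A ratio is read here only for its change between groups, since levels of different probe sets have no common scale.

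**Figure D4:**
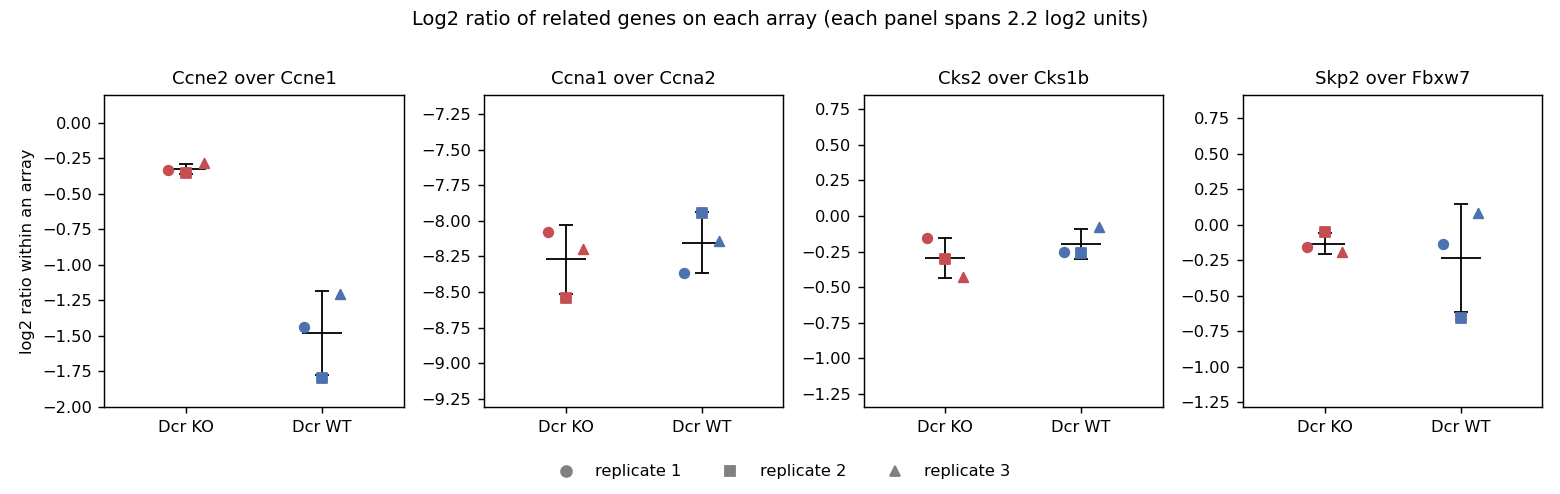
Log2 ratio of 4 pairs of related genes within each array, Dcr KO left and Dcr WT right (points, 1 per array, shaped by replicate; horizontal line, mean; bars, SD, n = 3). Ccne2 over Ccne1 lies between -0.36 and -0.28 on the Dcr KO arrays and between -1.80 and -1.20 on the Dcr WT arrays, and the other pairs overlap.

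Around these genes, 58 of 61 measured genes in 5 lists of the pathway were tested, of which 6 rose, 2 fell and 50 did not pass. The share called, 13.8%, was close to the 13.3% of all genes tested. The median log2 difference over the 58 was 0.04. Among 15 regulators of Cdk2, Cdkn1a rose, Cdc25c fell and 13 did not pass, with a median of 0.04. Cdkn1a, which encodes the kinase inhibitor p21, averaged 8.72 ± 0.40 in Dcr KO and 7.69 ± 0.18 in Dcr WT (SD, n = 3 each), or 2.05-fold (adjusted p = 0.0189 from limma). Cdc25c, a phosphatase that acts on Cdk1 at mitosis, fell by 0.73 on the log2 scale (adjusted p = 0.0316 from limma). Cdkn1a lost its call without Dcr KO replicate 2, Dcr WT replicate 1 or Dcr WT replicate 2 (highest adjusted p = 0.0531 from limma), and Cdc25c kept its call only when Dcr KO replicate 1 or 3 was left out (highest 0.104).

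Of the substrates and readouts of the kinase, 1 of 9 rose and none fell. This was Rbl2, the pocket protein p130, which averaged 5.19 ± 0.25 in Dcr KO and 4.10 ± 0.07 in Dcr WT (SD, n = 3 each). The difference was 2.12-fold (adjusted p = 0.00560 from limma) and stayed called with any 1 array left out. Its Dcr WT mean lay close to the minimum of 4. With dim probe sets left out, the log2 difference was 1.34 in place of 1.08. None of 9 tested E2F factors, through which the pocket proteins act on S phase genes, was called by limma, beside 13.3% of all genes tested. With only 9 genes, this is not read as a trait of them. Of the 9, 0 had an unadjusted p under 0.05, but the lowest was 0.0507 from limma. That count was not made over all genes tested. The median log2 difference of the 9 was 0.05.

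In the ubiquitin machinery, 17 of 19 tested genes did not pass and the median was -0.01. Cand1, which exchanges the F-box proteins on cullin 1, was higher (log2 difference 0.48, adjusted p = 0.0368 from limma), but its brightest probe set gave -0.03, and it kept its call only when Dcr WT replicate 1 was left out (highest adjusted p = 0.104 from limma). Fbxo5, an inhibitor of the anaphase-promoting complex that protects cyclin A, was lower by 0.37 (adjusted p = 0.0419 from limma) and lost its call with any 1 of the 6 arrays left out.

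Of 6 tested cyclins and kinases outside the set, 3 were called, all higher, beside 6.91% of all genes tested. The list was chosen with earlier results of these data known, so this share is not independent evidence. Ccnd2, a D-type cyclin of G1, averaged 7.67 ± 0.37 in Dcr KO and 4.69 ± 0.32 in Dcr WT (SD, n = 3 each, adjusted p = 0.00100 from limma). Its kinase partner Cdk6 differed by 0.75 (adjusted p = 0.0225 from limma) and Ccnd3 by 0.35 (adjusted p = 0.0418 from limma), and the median of this list was 0.39. With 1 array left out, Ccnd2 stayed called in all 6 fits, Cdk6 in 3 (not without Dcr KO replicate 2 or 3 or Dcr WT replicate 3) and Ccnd3 in 0. The brightest Ccnd3 probe set gave a difference of 0.18 (adjusted p = 0.280 from limma). Cdkn1a, Cand1, Ccnd2 and Cdk6 are, like Skp2, on the study's candidate list, so their direction is not independent evidence.

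**Figure D5:**
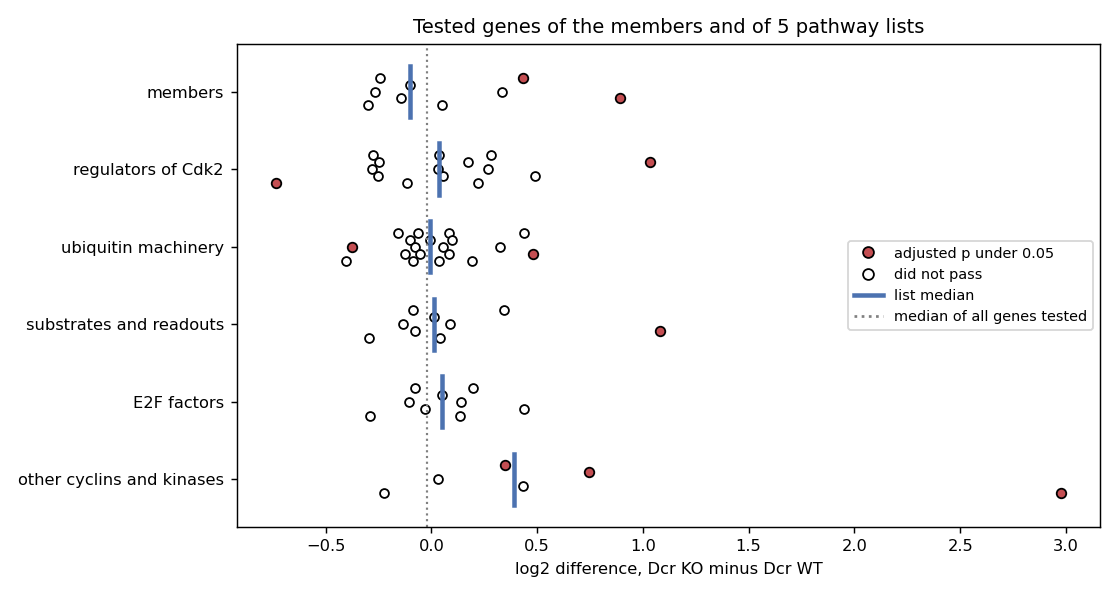
Log2 differences, Dcr KO minus Dcr WT, for single tested genes (points, filled where the adjusted p was under 0.05) for the 10 genes described here (labelled members) and 5 lists of the pathway, with each list's median (blue bar) and the median over all genes tested (dotted line, -0.02). Medians of 4 lists lie between -0.01 and 0.05, that of the other cyclins and kinases at 0.39 and that of the members at -0.10.

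Promoter windows from RefSeq (GRCm38.p6), from 250 bases before to 50 after the start site, were at hand for 8 of the 10 genes (11 windows, with no entry for Ccne2 or Ccna2). They were searched on both strands for E2F-type letters (TTTCCCGC, TTTCGCGC, TTTGCCGC or TTTGGCGC), since E2F factors are known to drive many genes of S phase entry. A match stood in 2 windows, those of Cdk2 and Cdc25a, against 2.26% of all 32851 windows of that length. Both sites are shown with 10 bases on either side, in the direction of the gene, with the match in capitals.
Cdk2, chr10:128705174-128705201, minus strand: accaggaactGCGGGAAAgttgtgcagc
Cdc25a, chr9:109875502-109875529, plus strand: gtgaattccgTTTGGCGCcaactaggaa
In Cdk2 the letters TTTCCCGC run against the direction of the gene. Neither gene passed the test, as given above. The CHR letters TTTGAA, tied to genes of late cell cycle, stood in 1 window each of Skp2 and Cks1b and in 17.9% of all windows. A match is a description of the letters and not of a bound factor.

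As a description, the tested genes most like 4 of the set over the 6 arrays were found by Pearson's r of log2 levels, which takes in the difference between the groups. For Ccne2 they were Tob1, a gene of an antiproliferative protein (r = 0.996), and Pip4k2a (r = 0.995), with 125 genes above 0.95. For Ccne1 they were Isy1 (r = 0.997) and Pdp2 (r = 0.994), with 91 genes above 0.95, and for Ccna2 they were Spry1 (r = 0.996) and Mcfd2 (r = 0.992), with 121. Cdk2, whose groups overlapped, had 20 such genes, led by Usp8 (r = 0.991) and Pfn1 (r = 0.984). The Cdk2 level used here takes in 1447617_at, which lay under the minimum, so nothing is read from its likeness.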

How the data were processed

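Log2 expression values of 45037 probe sets on 6 arrays were deposited by the authors. The submitters' processing notes name GCRMA 2.20.0, a background correction and normalization of probe-level data, and R 2.11.1. A figure legend of the study says that samples taken 5 days and over a month after deletion underwent a joint normalization for that figure, and whether the deposited values come from it is not stated. That step, or the background model at dim probe sets, could move the values. This was not tested. No array column was left unused (0 columns).

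Symbols came from the platform annotation: 34945 probe sets had 1 symbol, 932 several and 9160 none here, and only the first were used for genes. RefSeq (GRCm38.p6) held the Entrez IDs of 34741 of them and changed 0 symbols. Ccnb1 had no probe set of its own.

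A gene's value was the mean log2 of its probe sets. Groups were compared with limma 3.58.1 (lmFit, then eBayes, in R 4.3.3) over all 8782 genes with a mean of at least 4, and likewise over 18789 probe sets, with Benjamini-Hochberg adjustment at 0.05. The fit was tested on simulated data. Ratios within arrays were compared with an exact permutation test. Alternatives were no minimum level or a minimum of 32 on the linear scale, the brightest probe set, cross-hybridizing probe sets left out, quantile normalization, a trended variance prior, a replicate block and leaving out each array. Named genes are the 10 genes with all probe sets, up to 4 called genes of each list, Dicer1, and the most alike genes. The markers Tubb3, Nes, Pax6, Sox1, Ddx4 and Sycp3 were named after their values were seen. Members, lists and tests were chosen with earlier results of these data known.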

Additional observations from a re-analysis of the deposited data

How the results depend on the processing

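As a gene, Ccne2 passed under every alternative that was run. The count of the 10 genes called was 2. It was 3 with a trended variance prior, which added Ccna2, and 1 (Ccne2) with no minimum level, with the brightest probe set, with dim probe sets left out (an alternative chosen after seeing the data), with the replicate block and without each of the 6 arrays. The labels do not say whether replicate numbers pair the arrays. Deviations of same-numbered arrays correlated at -0.22, -0.02 and 0.03 across genes, and those of other pairs between -0.23 and 0.31. With 3 arrays a group, these values cannot settle whether the cultures were paired. With the replicate block, limma called 597 of the 8782 genes, 264 of the 18789 probe sets, 1 of the 10 genes and 3 of the 58 pathway genes, against 1171, 1457, 2 and 8 without it, and the Skp2 adjusted p was 0.0893. Without 1 array, the calls were 357 to 783 genes and 166 to 1057 probe sets, 1 in all 6 fits for the 10 genes and 2 to 6 for the pathway genes. These fits have fewer arrays and so less power.

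The difference of Cdk2 ranged between -0.023 (Dcr KO replicate 3 left out) and 0.15 and was -0.0033 with Dcr WT replicate 2 or 3 left out. The brightest Cand1 probe set gave -0.027. The ratio of Ccne2 over Ccne1 ranged between 1.00 and 1.29 without 1 array, Ccna1 over Ccna2 between -0.22 and 0.018, Cks2 over Cks1b between -0.17 and -0.03 and Skp2 over Fbxw7 between -0.11 and 0.26. The cause of these changes was not tested. With 3 arrays a group, intervals of the genes that did not pass remain wide.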
